A study of Mus musculus with 115 samples.

Results

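Brain gene expression was compared between adult mice of 9 months and old mice of 24 months, ages between which the mouse passes from mid adulthood into old age. The libraries were chosen by tissue and age from the sample labels: 8 brain libraries at 9 months and 7 at 24 months in the main count table, together 15 of the 115 samples of the series. Each library held total RNA of one complete brain hemisphere, prepared with a TruSeq kit and sequenced as short reads, from untreated male mice of the C57BL/6 strain (C57BL/6J in the methods of the study). No genetic change or agent was applied in either group, so age was the only labelled difference. The series also holds brain at 2, 15 and 30 months and liver, skin and blood at the same 5 ages, and one further brain library of 24 months lay in a separately deposited table and was described apart.

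In the ageing brain, microglia (the resident macrophages) and astrocytes (the star-shaped support cells) are known to take up reactive states, with higher transcripts of complement, of the major histocompatibility complex and of lysosomal enzymes. Complement is a cascade of secreted proteins in which C1 cleaves C4, the C4 product helps to cleave C3, and fragments of C3 tag membranes and synapses for phagocytes that carry the receptors of the integrin family. In bulk tissue, a change in the number of cells of a type cannot be told apart from a change in RNA per cell.

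Total counts assigned to genes ranged from 30638891 to 50375815 per library and did not differ between ages, with a mean difference of 920479 reads (exact permutation test, two-sided, p = 0.769, n = 8 and 7). Xist, the transcript of the inactive X chromosome, lay between 0.154 and 0.448 CPM (counts of a gene scaled to the size of its library) in the 15 libraries, and the Y-linked Ddx3y lay between 45.0 and 65.0 CPM. The markers of neurons (Snap25, Syt1, Rbfox3), astrocytes (Aqp4, Slc1a3, Gja1), oligodendrocytes (Mbp, Mog), microglia (Cx3cr1, P2ry12, Csf1r) and endothelium (Cldn5, Flt1, Pecam1) were present in every library, and none of these genes passed the test between ages. Summed CPM of the microglial markers was 135 to 204 at 9 months and 191 to 216 at 24 months. Hormone genes of the pituitary were high in single libraries: Gh, encoding growth hormone, reached 490 CPM in 9-month replicate 5 and 2299 CPM in 24-month replicate 5, against a median of 4.74 and 3.16 CPM. The blood markers Hba-a1 and Alas2 summed to 76.4 to 169 CPM at 9 months and 10.7 to 116 CPM at 24 months. Neither of them passed the test between ages, and the part of blood RNA in other genes was not tested.

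Among the 9-month libraries, 2 sets stood apart. Replicates 4 to 8 at 9 months were each nearly identical to the 15-month library of the same replicate number. The mean chi-square per gene of these 5 pairs was 1.21 to 2.76 over 16842 genes, where 1 is the value of pure counting noise, whereas the closest other pair of brain libraries had 4.38 and the median pair of one age 42.0. Such values could also arise from repeat libraries of the same sample, so it is not known whether the 9-month libraries concerned came from animals other than those labelled 15 months, or which age they hold. They were kept as labelled, and results are also given without the 10 libraries concerned, which leaves 3 libraries at 9 months. Replicates 1 and 3 at 9 months had 17.02% and 17.05% of their counts in genes of the mitochondrial genome, compared with 6.38% to 10.5% in the other 9-month libraries and 5.79% to 8.85% at 24 months. The mean mitochondrial share was 10.1 ± 4.50% (SD, n = 8) at 9 months and 7.32 ± 1.10% (SD, n = 7) at 24 months (exact permutation test, two-sided, p = 0.163). Without the near-identical libraries the 9-month mean was 13.6% (exact permutation test, n = 3 and 7, p = 0.05). Results are therefore also given without replicates 1 and 3.

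Few genes passed the test. Of 18851 genes tested with edgeR's quasi-likelihood test, 26 (0.138%) were called at an adjusted p under 0.05, of which 23 (0.122%) rose and 3 (0.0159%) fell from 9 to 24 months. The risers ranged from 1.17-fold for P2rx7 to 3.06-fold for Itgax, and in 18 of the 23 every 24-month library lay above every 9-month library, an arrangement found in 39 (0.207%) of all genes tested. Every 24-month library lay below every 9-month library in 1 gene (0.0053%), Ebf4 (log2 -0.21, adjusted p = 0.425), which was not called and is named here after its values were seen. At an unadjusted p under 0.05, 666 genes (3.53%) were higher and 1249 (6.63%) lower. Of the 26, 10 were called in all 15 fits that leave out 1 library, namely C4a, C4b, Vmn1r90, Itgax, AC149090.1, Abca8a, Itgb2, Lag3, Pisd-ps1 and BC061194. The number of calls was 45 (0.234%) without the near-identical libraries, 32 higher (0.166%) and 13 lower (0.0676%), of which 13 were shared. It was 13 (0.0688%) without 9-month replicates 1 and 3, all higher, of which 11 were shared. All 26 kept their direction in both. Both fits reuse libraries by which the 26 were chosen, so this likeness was largely fixed in advance. Leaving out 9-month replicate 1, 3 or 8 gave 12, 15 and 16 calls, and leaving out 24-month replicate 2 or 4 gave 13 and 16.

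**Figure D1:**
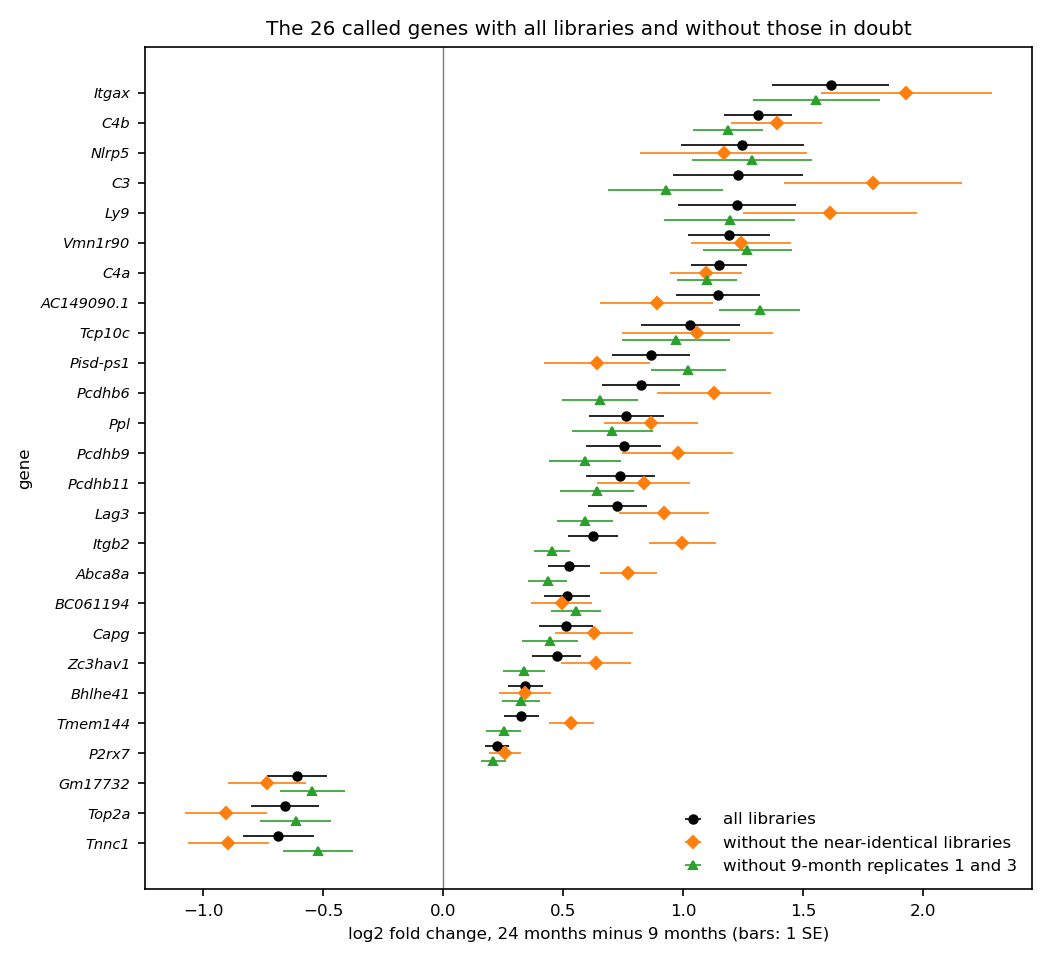
Log2 fold change (x axis, 24 minus 9 months) with 1 standard error for each of the 26 called genes (y axis), with all libraries (circles), without the near-identical libraries (diamonds) and without 9-month replicates 1 and 3 (triangles). All 23 risers and 3 fallers lie on the same side of 0 in the 3 fits, which share libraries, from -0.69 for Tnnc1 to 1.62 for Itgax with all libraries.

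The windows of 250 bases before the RefSeq transcript start are shown for 3 called genes: Itgax as the largest rise, Abca8a as a riser of the oligodendrocyte list and Top2a as a faller of the cell division list. The RefSeq table of GRCm38 gave windows for 14 of the 26 called genes. Capitals mark the letters CCAAT (the CCAAT box, bound by NF-Y), TTTGAA (the CHR element of cell cycle genes), GAGGAAG (the core bound by PU.1, a factor of macrophages and microglia), CACGTG (an E-box), searched with the interferon response element on both strands, and the PU.1 core and a CCAAT box lie side by side in the Top2a window.
Itgax (chr7:128129300-128129549, plus strand): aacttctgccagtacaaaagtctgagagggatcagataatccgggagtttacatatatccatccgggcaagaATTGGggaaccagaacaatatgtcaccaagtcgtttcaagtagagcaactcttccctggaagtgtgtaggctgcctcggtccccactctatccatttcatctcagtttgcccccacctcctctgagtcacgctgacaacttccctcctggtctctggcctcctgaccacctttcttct
Abca8a (chr11:110095938-110096187, minus strand): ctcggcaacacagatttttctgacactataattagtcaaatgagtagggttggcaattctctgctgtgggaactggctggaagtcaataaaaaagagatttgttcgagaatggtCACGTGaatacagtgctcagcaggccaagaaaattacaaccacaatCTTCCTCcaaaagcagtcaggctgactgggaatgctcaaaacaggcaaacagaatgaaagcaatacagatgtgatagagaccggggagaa
Top2a (chr11:99024190-99024439, minus strand): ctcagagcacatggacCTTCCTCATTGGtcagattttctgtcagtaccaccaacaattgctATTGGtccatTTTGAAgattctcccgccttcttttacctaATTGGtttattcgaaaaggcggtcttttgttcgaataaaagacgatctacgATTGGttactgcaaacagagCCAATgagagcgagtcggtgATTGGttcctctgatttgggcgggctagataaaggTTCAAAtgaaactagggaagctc
The Top2a window held 6 CCAAT boxes, a number reached by 19 of the 32851 windows of the table (0.0578%), and the CHR letters at 2 places (16% of all windows hold them). The Itgax window held 1 CCAAT box (33.8% of all windows hold one), and that of Abca8a held a PU.1 core (10.6%) and an E-box (6.02%). The interferon response element (2.98% of all windows) was in none of the 19 windows of the called genes, which says only that these letters are not in them.

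Complement gave the 2 smallest p-values. C4b (chromosome 17, 34728380 to 34743882, minus strand) encodes complement C4, the second component of the classical pathway. Its level was 23.7, 33.7 and 47.3 CPM (lowest, median and highest) at 9 months and 80.3, 86.0 and 88.0 CPM at 24 months. The ages did not overlap, and the old libraries lay within a narrow range. C4b rose 2.48-fold, by 1.31 ± 0.14 (SE) on the log2 scale (adjusted p = 3.56e-07). C4a, its duplicated neighbour (chromosome 17, 34809092 to 34823464, minus strand), had 7.61, 8.71 and 12.4 CPM at 9 months and 17.4, 20.8 and 22.2 CPM at 24 months. C4a rose 2.22-fold, by 1.15 ± 0.12 (SE) on the log2 scale (adjusted p = 1.04e-07). The copies are nearly identical in sequence, so the split of reads between them is uncertain, and the C4b to C4a ratio was 3.002 to 4.37 at 9 months and 3.89 to 4.61 at 24 months. Both were called without the near-identical libraries (1.39 for C4b and 1.10 for C4a on the log2 scale) and without 9-month replicates 1 and 3 (1.19 and 1.10).

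C3, on which all complement pathways converge, had 0.512, 1.68 and 2.97 CPM at 9 months and 2.88, 4.16 and 4.56 CPM at 24 months, and 6 of 7 old libraries lay above all 8 younger ones. C3 rose 2.35-fold (log2 1.23 ± 0.27 SE, adjusted p = 0.0451). The 2 lowest libraries were 9-month replicates 1 and 3, with 0.51 and 0.61 CPM. Without them the log2 difference was 0.93 (adjusted p = 0.256), and C3 was called in 4 of the 15 fits that leave out 1 library. Of the 20 complement genes tested, 3 were called and all 3 rose, where 0.122% of all genes were called higher. The median log2 change was 0.22, beside -0.004 over all genes. The mean level of the list relative to the 9-month mean was -0.23 to 0.12 (log2) in the 9-month libraries and 0.24 to 0.38 in the 24-month libraries, with no overlap. That mean includes the 3 called genes and was not taken without them, so it does not describe the list as a whole. C1ra, a gene for the protease C1r, and C3ar1, the receptor of the C3a fragment, had log2 differences of 0.61 and 0.39 and did not pass (adjusted p = 0.190 and 0.390). The C1q genes C1qa, C1qb and C1qc had smaller differences of 0.11, 0.10 and 0.20, which did not pass. Of the 20 genes 17 lay above 0, and Cfp (-0.31), Cd59a (-0.20) and Cd55 (-0.15) lay below.

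**Figure D2:**
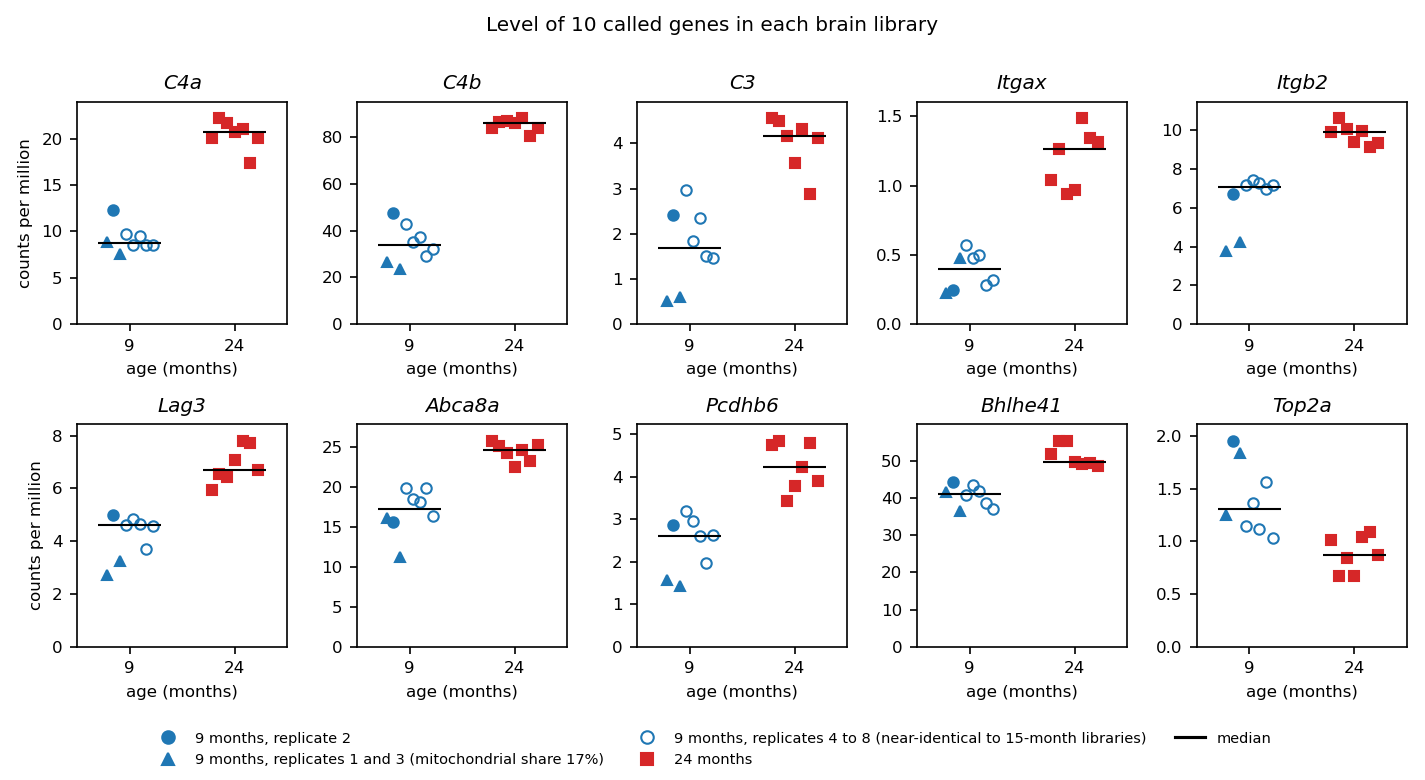
CPM (y axes, from 0) of 10 called genes in each brain library at 9 and 24 months (x axes), with the group median as a line. In C4b all 24-month libraries lie between 80.3 and 88.0 CPM, above the highest 9-month library at 47.3 CPM, and 9-month replicates 1 and 3 (triangles) are the lowest points for C3, Itgb2, Lag3 and Pcdhb6.

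Of the integrin chains that form complement receptors, Itgax and Itgb2 rose and Itgam did not pass. Itgax, encoding CD11c, an integrin chain that pairs with CD18 to form a receptor for C3 fragments, had 0.225, 0.396 and 0.573 CPM at 9 months and 0.938, 1.26 and 1.49 CPM at 24 months, from 9 to 27 and from 30 to 63 reads per library. The ages were fully apart, and Itgax rose 3.06-fold (log2 1.62 ± 0.24 SE, adjusted p = 0.000392). Itgb2, encoding CD18, the shared beta chain of leukocyte integrins, had 3.79, 7.07 and 7.42 CPM at 9 months and 9.15, 9.91 and 10.6 CPM at 24 months. It rose 1.54-fold (log2 0.62 ± 0.11 SE, adjusted p = 0.00191). The rise of Itgb2 was 0.997 on the log2 scale without the near-identical libraries and 0.45 without 9-month replicates 1 and 3, and it was called both times. Itgam, encoding the CD11b chain of the related receptor, had a log2 difference of 0.32 that did not pass (adjusted p = 0.471).

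Lag3, an inhibitory receptor of lymphocytes that binds class II molecules, had 2.72, 4.59 and 5.00 CPM at 9 months and 5.93, 6.71 and 7.81 CPM at 24 months, and rose 1.65-fold (adjusted p = 0.00203). Ly9, a receptor of the SLAM family on lymphocytes, went from a median of 0.583 to 1.29 CPM with no overlap (log2 1.23 ± 0.25 SE, adjusted p = 0.0196), although it was not called without 9-month replicates 1 and 3 (adjusted p = 0.132). Among 14 genes of T and NK cells and 17 of B and plasma cells none was called, with medians of 0.08 and 0.25. Capg, a protein that caps actin filaments in macrophages, rose 1.43-fold (adjusted p = 0.0424), and P2rx7, an ion channel opened by extracellular ATP, rose 1.17-fold (adjusted p = 0.0451). P2rx7 had the smallest rise of all called genes, but its libraries were fully apart, with at most 13.7 CPM at 9 months and at least 14.0 CPM at 24 months. Zc3hav1, an antiviral protein that binds viral RNA, rose 1.39-fold (adjusted p = 0.0379). None of Capg, P2rx7 and Zc3hav1 was called in either reduced set of libraries.

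Of 27 genes of activated microglia, Itgax was the only one called, and the median log2 change of the list was 0.22. Of the 27, 24 lay above 0, where 9271 of all 18851 genes did. At an unadjusted p under 0.05, 12 were higher and 0 lower, where 3.53% of all genes were higher. Cst7, an inhibitor of lysosomal cathepsins, and Gpnmb, a glycoprotein of lysosome-rich macrophages, had log2 differences of 1.76 and 0.76 (adjusted p = 0.179 and 0.0948). Gpnmb was called without the near-identical libraries (1.27, adjusted p = 0.0234), but not without 9-month replicates 1 and 3. The mean level of this list was -0.09 to 0.07 in 9-month libraries and 0.17 to 0.38 in 24-month libraries. Its median was 0.35 without the near-identical libraries and 0.19 without 9-month replicates 1 and 3. Of 20 genes of homeostatic microglia none was called, and the median of 0.12 was 0.22 and 0.06 in these sets. In this list 13 genes lay above 0. At that unadjusted level 4 were higher and 1 lower, where 3.53% and 6.63% of all genes were. Fcrls, a receptor-like gene of homeostatic mouse microglia, had the smallest p of that list, with 3.58, 4.36 and 5.47 CPM at 9 months and 2.82, 3.04 and 4.07 CPM at 24 months (log2 -0.47, adjusted p = 0.365). Of 31 lysosomal genes none was called, while 10 were higher and 0 lower at an unadjusted p under 0.05. The median log2 change of 0.16 was 0.32 without the near-identical libraries and 0.06 without 9-month replicates 1 and 3. Those 2 libraries had the lowest levels of the list (-0.32 and -0.36). Ctsz, encoding cathepsin Z, had the smallest p (log2 0.20, adjusted p = 0.161).

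Interferon genes gave no call. Of 51 genes tested, 43 lay above 0, where 9271 of all 18851 genes did. Among them 10 were higher and 0 lower at an unadjusted p under 0.05, where 3.53% of all genes were higher. The median log2 change was 0.22, which was 0.22 without the near-identical libraries and 0.17 without 9-month replicates 1 and 3. Ifih1, a sensor of double-stranded RNA, had 4.71, 7.05 and 7.94 CPM at 9 months and 7.67, 8.38 and 9.22 CPM at 24 months (log2 0.34, adjusted p = 0.0627). Cxcl10, a chemokine induced by interferon, had a log2 difference of 1.41 (adjusted p = 0.0836). The list level overlapped between ages, with -0.23 to 0.33 at 9 months and 0.04 to 0.58 at 24 months, and the highest libraries were 24-month replicate 4 and 9-month replicate 5. Of 23 antigen presentation genes none was called (median 0.26, and 0.41 and 0.21 in the reduced sets), and Tap2, a subunit of the peptide transporter for class I molecules, had the smallest p (log2 0.38, adjusted p = 0.411).

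No reactive astrocyte gene passed, and Serpina3n lay nearest to the threshold. Serpina3n, a secreted serine protease inhibitor, had 5.83, 12.2 and 20.03 CPM at 9 months and 17.1, 21.1 and 23.5 CPM at 24 months (log2 0.74 ± 0.17 SE, adjusted p = 0.0510). It was called without the near-identical libraries (log2 1.23, adjusted p = 0.00667) and not without 9-month replicates 1 and 3 (log2 0.53, adjusted p = 0.306). Gfap, the intermediate filament of astrocytes, had 148, 212 and 248 CPM at 9 months and 260, 279 and 371 CPM at 24 months. All 7 old libraries lay above all 8 younger ones, yet the difference of 0.55 ± 0.14 (SE) on the log2 scale did not pass (adjusted p = 0.134). None of 29 genes of the list was called, 11 were higher at an unadjusted p under 0.05 (3.53% of all genes were), and the median log2 change was 0.29. That median was 0.60 without the near-identical libraries and 0.14 without 9-month replicates 1 and 3. General astrocyte genes had no call among 19 and a median of 0.11, which was 0.33 and 0.01 in the same reduced sets.

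Of the myelin and oligodendrocyte genes 1 was called, and of the synaptic genes none. Abca8a, a lipid transporter of the ABC family counted here with the myelin genes, had 11.3, 17.2 and 19.9 CPM at 9 months and 22.5, 24.6 and 25.8 CPM at 24 months, with no overlap. It rose 1.44-fold (log2 0.53 ± 0.09 SE, adjusted p = 0.00167) and was called in both reduced sets of libraries. The 30 myelin and oligodendrocyte genes had a median of 0.12, which was 0.24 without the near-identical libraries and 0.08 without 9-month replicates 1 and 3. Opalin, a membrane protein of oligodendrocytes, had a log2 difference of -0.50 and Sox10, the lineage factor, one of 0.34, and neither passed (adjusted p = 0.471 and 0.325). Tmem144, a multipass membrane protein, rose 1.25-fold (adjusted p = 0.0465) and was called in 2 of the 15 fits that leave out 1 library. None of 30 synaptic genes was called, with a median of 0.14 that was 0.37 without the near-identical libraries and -0.01 without 9-month replicates 1 and 3.

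The clustered protocadherins, adhesion molecules that give neurons a surface identity, gave 3 of the 23 rises, where 0.122% of all genes were called higher. All 21 protocadherins measured lay above 0, where 9271 of the 18851 genes tested did, and their median log2 change was 0.51. Pcdhb11 had 2.88, 4.06 and 5.01 CPM at 9 months and 5.64, 6.49 and 7.70 CPM at 24 months (log2 0.74, adjusted p = 0.0166). Pcdhb6 had 1.44, 2.61 and 3.19 CPM at 9 months and 3.44, 4.22 and 4.85 CPM at 24 months (log2 0.83, adjusted p = 0.0177). Pcdhb9 had 6.75, 12.04 and 14.6 CPM at 9 months and 16.8, 18.9 and 22.95 CPM at 24 months (log2 0.75, adjusted p = 0.0247). In these 3 genes the ages did not overlap. Members of the beta cluster share long stretches of sequence, so single members are uncertain, as reads can be assigned to the wrong copy. The level of the list was lowest in 9-month replicates 1 and 3 (-0.57 and -0.50), lay between -0.22 and 0.45 in the other 9-month libraries, and overlapped with the 24-month libraries (0.21 to 0.68). Without replicates 1 and 3 the median was 0.33 and none of the 3 was called (adjusted p = 0.174 for Pcdhb11 and Pcdhb6, 0.250 for Pcdhb9).

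**Figure D3:**
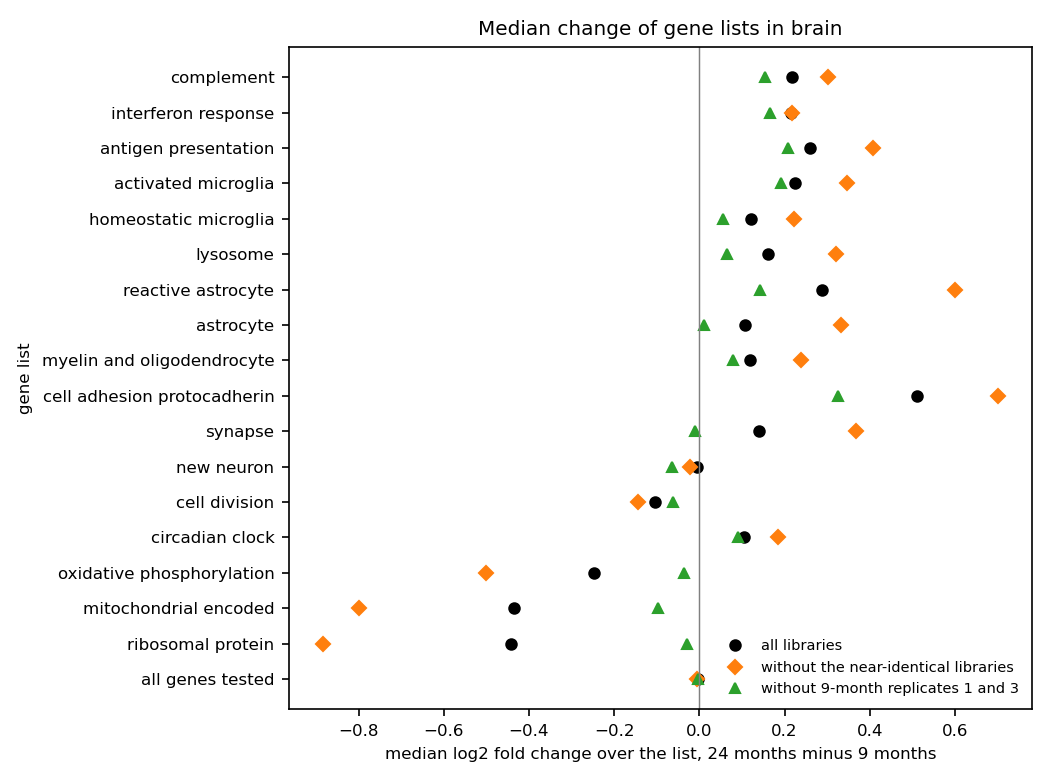
Median log2 fold change (x axis, 24 minus 9 months) over the tested genes of 17 lists and over all genes (y axis), with all libraries (circles), without the near-identical libraries (diamonds) and without 9-month replicates 1 and 3 (triangles). The ribosomal protein list goes from -0.44 to -0.03 without replicates 1 and 3, whereas the interferon list goes from 0.22 to 0.17.

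Of the 3 fallers, 1 is a gene of dividing cells. Top2a (chromosome 11, 98992943 to 99024189, minus strand), the topoisomerase that untangles DNA in dividing cells, had 1.04, 1.31 and 1.96 CPM at 9 months and 0.67, 0.874 and 1.09 CPM at 24 months, from 36 to 72 and from 25 to 49 reads. The ages overlapped in 2 of the 7 old libraries. Top2a fell by 0.66 on the log2 scale (SE 0.14, adjusted p = 0.0379), by 0.91 without the near-identical libraries (adjusted p = 0.0140) and by 0.62 without 9-month replicates 1 and 3, where it did not pass (adjusted p = 0.174). Of 39 cell division genes it was the only one called, and the median of -0.10 was -0.14 and -0.06 in the reduced sets. Ccnb1, encoding cyclin B1, and Mki67, the proliferation marker, had log2 differences of -0.91 and -0.42 (adjusted p = 0.179 and 0.312). None of 29 genes of new neurons was called, and the median was -0.01. Of these, 6 were lower and 0 higher at an unadjusted p under 0.05, where 6.63% and 3.53% of all genes were. D0H4S114, which GENCODE vM21 names Nrep, had the smallest p of the list (log2 -0.48, adjusted p = 0.330). Its log2 difference was -0.71 without the near-identical libraries and -0.32 without 9-month replicates 1 and 3. The other called fallers were Tnnc1, the troponin C of slow and cardiac muscle (median 5.08 and 3.55 CPM, log2 -0.69, adjusted p = 0.0391), and the predicted gene Gm17732 (median 1.01 and 0.643 CPM, log2 -0.61, adjusted p = 0.0247). The 3 muscle markers Acta1, Ckm and Myh2 summed to 7.47 to 9.57 CPM at 9 months and 6.15 to 8.46 CPM at 24 months, and the part of muscle RNA in the Tnnc1 value was not tested. Without replicates 1 and 3 at 9 months no faller was called.

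Bhlhe41, a repressor of the circadian clock, had 36.4, 41.1 and 44.3 CPM at 9 months and 48.7, 49.6 and 55.4 CPM at 24 months, with no overlap, and rose 1.27-fold (adjusted p = 0.0379). It was called neither without the near-identical libraries (adjusted p = 0.0760) nor without 9-month replicates 1 and 3 (adjusted p = 0.182), and in 7 of the 15 fits that leave out 1 library. It was the only call among 18 clock genes, whose median of 0.10 was 0.19 and 0.09 in these reduced sets. Its paralogue Bhlhe40 and the clock gene Per1 had log2 differences of 0.42 and 0.40 that did not pass (adjusted p = 0.415 and 0.471). The time of day of sampling was not given in the sources used here.

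Several called genes are known for other tissues or lie in repeated copies. The gene listed as Vmn1r90 (chromosome 7, 14530652 to 14622479, minus strand) carries an identifier that GENCODE vM21 names Nlrp5-ps, a pseudogene of Nlrp5. It had 0.897, 1.53 and 2.06 CPM at 9 months and 2.60, 3.47 and 4.11 CPM at 24 months, fully apart, and rose 2.29-fold (adjusted p = 0.000168). Nlrp5 itself, a maternal gene of the oocyte, was called too, with 1 to 14 reads per library at 9 months and 11 to 18 at 24 months (log2 1.25, adjusted p = 0.0247). The 2 related loci cannot be told apart where their reads are shared. AC149090.1 had 102, 141 and 276 CPM at 9 months and 241, 309 and 470 CPM at 24 months (log2 1.15 ± 0.18 SE, adjusted p = 0.000456). Pisd-ps1, a pseudogene of the mitochondrial enzyme phosphatidylserine decarboxylase, had 18.3, 25.9 and 47.3 CPM at 9 months and 34.8, 46.3 and 72.3 CPM at 24 months (log2 0.87 ± 0.16 SE, adjusted p = 0.00948). In both genes the highest 9-month library was replicate 1, and the ratio of AC149090.1 to Pisd-ps1 stayed between 5.05 and 6.93 in the 15 libraries. Neither was called without the near-identical libraries (adjusted p = 0.0704 and 0.0815). The parent gene Pisd had a log2 difference of 0.25 (adjusted p = 0.0630).

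BC061194, whose identifier GENCODE vM21 names Spag6, a component of the axoneme of motile cilia, had 2.25, 2.59 and 3.12 CPM at 9 months and 3.41, 3.57 and 4.31 CPM at 24 months, fully apart, and rose 1.43-fold (adjusted p = 0.00948). Tcp10c, a gene of the mouse t-complex, had 5 to 9 reads per library at 9 months and 11 to 19 at 24 months (log2 1.03, adjusted p = 0.0196). Ppl, encoding periplakin of cell junctions, went from a median of 2.42 to 3.91 CPM with no overlap (log2 0.76, adjusted p = 0.0247). Neither Tcp10c nor Ppl was called in the reduced sets.

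Transcripts of energy metabolism and of ribosomes were lower without passing the test, and they moved with 2 libraries. All 13 protein genes of the mitochondrial genome had log2 differences below 0 (median -0.43), of which 11 had an unadjusted p under 0.05, where 6.63% of all genes were lower at that level. All 35 ribosomal protein genes lay below 0 (median -0.44), and 28 of 35 nuclear genes of oxidative phosphorylation did (median -0.25). Over all 18851 genes tested, 9271 lay above 0. None of the 83 genes of these 3 lists was called. Mean levels of the ribosomal list relative to the 9-month mean were 0.93 and 0.77 in 9-month replicates 1 and 3, -0.51 to 0.10 in the other 9-month libraries and -0.49 to 0.00 at 24 months. Without those 2 libraries the medians were -0.10, -0.03 and -0.04 for the 3 lists, and without the near-identical libraries, where replicates 1 and 3 are 2 of the 3 left, they were -0.80, -0.88 and -0.50. In the latter fit 13% of all genes were higher and 19.9% lower at an unadjusted p under 0.05, and without replicates 1 and 3 these shares were 1.88% and 1.01%.

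**Figure D4:**
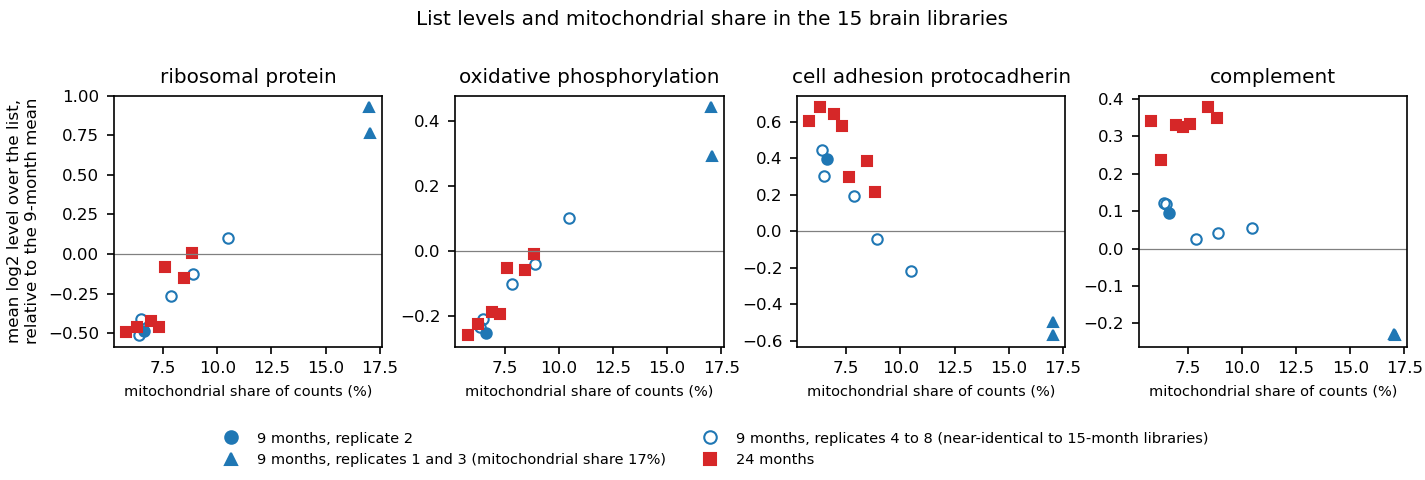
Mean log2 level of 4 gene lists relative to the 9-month mean (y axes) against the mitochondrial share of counts in percent (x axes), 1 point per library. The 9-month replicates 1 and 3 (triangles), at a share of 17.02% and 17.05%, are the highest points of the ribosomal protein and oxidative phosphorylation lists and the lowest of the protocadherin and complement lists, and in the complement list the 24-month libraries (squares) lie above all 9-month libraries.

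Other groups showed no call. Of 24 senescence and p53 genes none was called (median 0.04), and Cdkn2c, an inhibitor of the cell cycle kinases, had the smallest p (log2 -0.53, adjusted p = 0.398). None of 9 erythroid genes was called, and 0 lay above 0, where 9271 of all 18851 genes did. Their median of -0.57 was -0.84 without the near-identical libraries and -0.40 without 9-month replicates 1 and 3. The 10 hormone genes of the pituitary and olfactory list had a median log2 difference of 1.97, with no call. Pomc, the precursor of corticotropin, was at 224 CPM in 24-month replicate 5 against 1.15 to 3.63 CPM in the other old libraries, and the log2 fold change of Pomc was 2.89 (adjusted p = 0.471) with all libraries and -1.19 without that one. Lcn2, a secreted iron-binding protein of neutrophils and reactive astrocytes, had 0.205, 0.502 and 0.692 CPM at 9 months and 0.970, 1.76 and 5.12 CPM at 24 months, fully apart but wide within the old group (log2 2.19, adjusted p = 0.365).

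The levels of the called genes at the other ages describe their course. These comparisons share the 9- or the 24-month libraries with the main one, so levels are given side by side. Of the 8 libraries at 15 months, 5 are the near-identical partners of 9-month libraries, so the likeness of the 9- and 15-month medians is largely fixed by them. Median C4b was 23.1, 33.7, 39.8, 86.0 and 152 CPM at 2, 9, 15, 24 and finally 30 months, and median Itgax was 0.328, 0.396, 0.368, 1.26 and 2.35 CPM. From 24 to 30 months 4 of the 26 were called, C4a, C4b, Itgax and Capg, with log2 differences of 0.84, 0.90, 1.02 and 0.59. From 2 to 9 months 3 were called: Abca8a (log2 0.96) and BC061194 (0.94) rose, and Top2a fell by 1.03. The shares of all genes called over these other intervals are not given here. Whether 4 or 3 of the 26 is more than among all genes is therefore left unsaid. Median Abca8a was 8.93, 17.2, 19.4, 24.6 and 23.8 CPM over the 5 ages, and median Top2a was 2.92, 1.31, 1.17, 0.874 and 0.868 CPM.

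**Figure D5:**
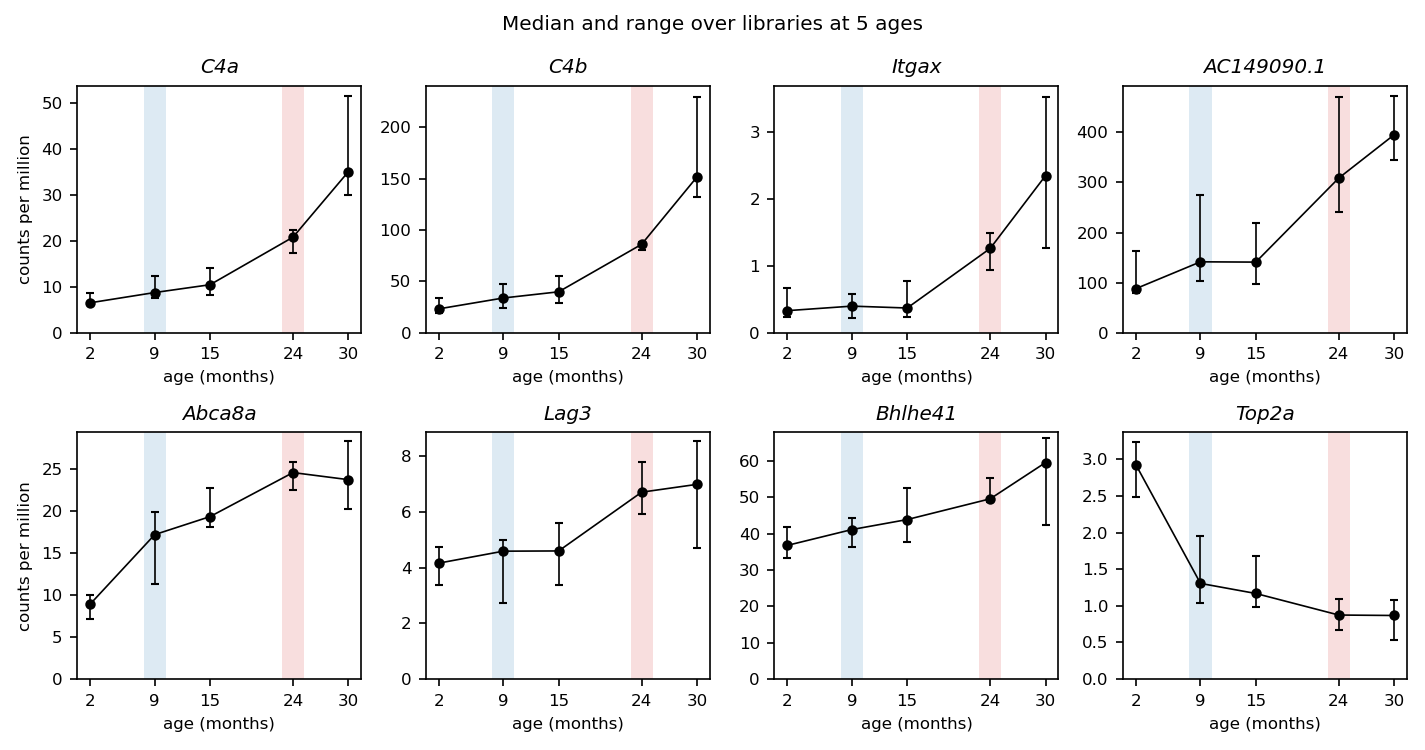
Median CPM (points) with the lowest and highest library (bars) of 8 called genes at the 5 ages in months (x axes), with the compared ages shaded. Lines join the medians, 5 of the 8 libraries at 15 months are nearly identical to 9-month libraries, and median C4b goes from 33.7 CPM at 9 months to 86.0 CPM at 24 months and 152 CPM at 30 months, whereas median Abca8a is 24.6 and 23.8 CPM at 24 and 30 months.

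Whether a change was particular to brain was tested against the mean change of liver (10 libraries at the same ages), skin (10) and blood (9) with limma. The difference between tissues was called for 76 of 21764 genes (0.349%), among them 6 of the 26. The 26 were chosen by their change in these same brain libraries, which raises that number in advance. It cannot be read against the share of all genes. For C4a the log2 change was 1.17 ± 0.17 (SE) in brain, 0.12 in liver, -0.02 in skin and -0.01 in blood (difference 1.15 ± 0.24, adjusted p = 0.00822). AC149090.1 and Pisd-ps1 also exceeded the other tissues, by 1.13 (adjusted p = 0.000132) and 0.86 (adjusted p = 0.00625), as did Nlrp5 by 1.85 (adjusted p = 0.0381) and Zc3hav1 by 0.55 (adjusted p = 0.0244). Nlrp5 had 1 to 18 reads per brain library at 9 and 24 months. Its log2 changes were -0.68 ± 0.52 (SE) in liver, -0.38 ± 0.45 in skin and -0.03 ± 0.56 in blood, so its difference between tissues is uncertain. For Bhlhe41 the brain change was below the mean of the other tissues, though not below that of skin, with log2 changes of 0.36 in brain, 2.97 in liver, 0.28 in skin and 3.09 in blood (difference -1.76 ± 0.32, adjusted p = 0.000623). The difference did not pass for C4b (1.05 ± 0.32, adjusted p = 0.161) or for Itgax, which had a log2 change of 2.58 in liver (adjusted p = 0.726).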

How the data were processed

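Total RNA of mouse brain was sequenced after TruSeq preparation. Per the submitters' processing notes and the methods, the authors aligned reads with TopHat2 2.0.6 to GRCm38 and counted them per gene with HTSeq 0.5.3p9 or featureCounts 1.4.3-p1 (bcl2fastq 1.8.3 and CASAVA 1.7 are also named). Whether counting used strand was not stated, so antisense and overlapping genes are not separable. The deposited counts are whole reads per gene, not normalized, for 37315 genes, of which 35449 matched GENCODE vM21 (GRCm38) by identifier. RPKM values calculated by the authors were used for the study's filter in an alternative only.

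After filterByExpr removed genes of low counts, age was tested with edgeR 4.0.16 under R 4.3.3 (TMM scaling, robust quasi-likelihood test, age as a factor over all 39 main brain libraries, contrast of 24 minus 9 months), with Benjamini-Hochberg adjustment and calls under 0.05. The differences between tissues used limma 3.58.1 (voom). CPM used TMM library sizes, and list levels are means of log2(CPM + 0.5). On simulated counts of 18851 genes for this comparison, 97% of 2-fold and 75% of smaller changes (log2 0.5) were recovered, with 8 unchanged genes called. The changed genes were drawn above an average log2 CPM of 1. Simulated libraries were independent, with no near-identical pairs and none of high mitochondrial share. These rates therefore do not hold for genes of low counts or for the real libraries. Levels of markers, lists and the added library were scaled over the brain libraries of both tables. Each library was taken as 1 animal, and the edgeR p-values rest on a spread estimated over all 39 brain libraries, near-identical pairs included. If those pairs are repeats of the same samples, they count as extra replicates and these p-values may be too small.

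The libraries and the 35 gene lists (824 of 826 names found) were chosen with earlier results of these data known. Named genes were the called genes of largest change (up to 10 each way, ordinary symbols, average log2 CPM from 1 upward), up to 3 called members of each list or its member of smallest p, and C4b, C4a and Gfap. Other called genes, other list members and the hormone genes were named after their values were seen. Alternatives covered scaling (RLE), filters, voom, DESeq2 1.42.0, the libraries fitted, blocks, covariates and leaving out each library. Cdkn2a, named in advance, did not pass the count filter.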

Additional observations from a re-analysis of the deposited data

Results flagged for a closer look

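In single genes, 4 of 56 groups of libraries held one library far from the others by Dixon's criterion, which chance alone flags in about 1 of 20 groups. C4a stood at 12.4 CPM in 9-month replicate 2, where the next highest was 9.75 CPM. AC149090.1 stood at 276 CPM and Pisd-ps1 at 47.3 CPM in 9-month replicate 1, where the next highest libraries had 151 and 28.6 CPM. Gm17732 stood at 0.970 CPM in 24-month replicate 3, above a next value of 0.684 CPM.

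The change from 9 to 24 months differed between brain and the mean of liver, skin and blood (limma, adjusted p under 0.05) for 6 of the 26 called genes. These 26 were chosen by their change in the same brain libraries, so this number was raised in advance. Brain was higher by 1.15 on the log2 scale for C4a, 1.13 for AC149090.1, 0.86 for Pisd-ps1, 1.85 for Nlrp5 and 0.55 for Zc3hav1, and the difference was -1.76 for Bhlhe41. The value of Nlrp5 rests on few reads per library.

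The added 24-month brain library, which was left out of the main comparison and entered only the alternative fit with the added library, had a mitochondrial share of 22.3%. In it 11 of the 23 risers lay above every 9-month library, among them C4b at 55.3 CPM, C4a at 13.9 CPM and Itgax at 0.745 CPM, and 1 of the 3 fallers lay below every 9-month library. The share of all genes outside the 9-month range in this library was not counted. Without it these counts cannot be read as a repeat of the changes.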

How the results depend on the processing

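Across all alternatives, none of the 26 called genes changed direction: of 754 values, 549 kept the call and 205 did not reach the threshold. The alternatives reuse libraries by which the 26 were chosen, so equal directions were largely fixed in advance. The 26 calls became 28 with RLE scaling, 18 without a filter, 25 with the filter of the study and 27 with voom. They became 59 with DESeq2, 16 with only the 15 libraries of both ages, 15 with the added library, 45 without the near-identical libraries, 96 with the mitochondrial share and 108 with the ribosomal protein level as a covariate. With 2 subsets chosen after seeing the data, 8 were called with only the near-identical libraries kept at 9 months and 13 without 9-month replicates 1 and 3. Leaving out each library in turn gave 12 to 33 calls, with 12, 15 and 16 without 9-month replicates 1, 3 and 8 and 13 and 16 without 24-month replicates 2 and 4. The cause of these shifts was not tested. Whether equal title numbers mark shared conditions is not stated. Over 7 pairs correlations of deviations ran from -0.71 to 0.46, with 4 over 0.1, and 1 library at 24 months correlated best with its own title, so pairing was not assumed. A replicate block on the titles gave 46 calls.

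The differences between tissues gave 138 genes without the near-identical libraries and 29 when every tissue mean had to reach 1 CPM. The mitochondrial share difference ran from -3.32 to -1.79 percentage points when 1 library was left out, and that of total reads from -435792 to 2493730, with -1472053 without the near-identical libraries. Of 841 values of named genes not called, 23 passed the threshold and 6 reversed: the log2 fold change of Pomc was -0.47 with DESeq2 and ran from -1.19 (without 24-month replicate 5) to 3.50 when 1 library was left out, the log2 fold change of Rps2 was 0.074 with the added library and 0.023 with the mitochondrial share as a covariate, and with that covariate the log2 fold change of Trbc2 was 0.019 and the log2 fold change of Cldn10 0.014. Of 1015 list medians, 37 moved by more than 1 SD of the replicates. Genes under about 1 CPM, such as Nlrp5 and Tcp10c, rest on few reads per library.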

Other observations

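In the fit without the near-identical libraries, 32 genes were called that are not among the 26. They include the phagocyte genes Mpeg1 (log2 0.65), Lcp1 (0.47), Dock2 (0.94) and Gpnmb (1.27), and Ptgs1 (0.47), a cyclooxygenase, as higher, and genes of dividing cells as lower, namely Pbk (-1.52), Brca1 (-0.66) and Ccnb1 (-1.33). In the fit with all libraries their adjusted p-values were 0.0627 for Mpeg1, 0.305 for Lcp1, 0.215 for Dock2, 0.0948 for Gpnmb, 0.0957 for Ptgs1, 0.102 for Pbk, 0.0789 for Brca1 and 0.179 for Ccnb1. These genes were picked after their values were seen, and at 9 months that fit rests on 3 libraries, of which 2 have the high mitochondrial share.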
